A study of Homo sapiens with 6 samples.

Results

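The 4 human ID genes, ID1, ID2, ID3 and ID4, and the 3 E protein genes TCF3, TCF4 and TCF12 were examined in HK-2 cells with and without TGF-β1. The members were taken by gene symbol from the primary chromosomes, which gave 7 of the 41497 named entries in each deposited count table. HK-2 cells are a human kidney line of proximal tubule origin that was immortalised, and both groups were labelled wild type. The control group comprised 3 libraries of untreated cells and the TGF-β1 group 3 libraries of cells kept with TGF-β1 for 24 hours, and the sequenced RNA was poly(A) selected. The labels name serum-containing growth medium. The methods of the study describe serum-free TGF-β treatment at a set dose for treatment experiments in general, without tying the medium or the dose to the sequenced libraries, and separate cultures are not mentioned for the replicates. The p-values therefore measure the spread between these libraries, which may be technical.

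ID proteins are helix-loop-helix factors without the basic region that contacts DNA. They dimerise with E proteins, the widely expressed basic helix-loop-helix (bHLH) factors, and keep them from binding E-box sequences alone or with tissue-restricted class II bHLH partners. ID genes are classic direct targets of the BMP receptors and their SMAD1/5/9 proteins, and in epithelial cells they are known to respond to TGF-β as well. The balance of ID and E proteins is known to influence epithelial differentiation and the cell cycle.

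TCF4 mRNA rose 2.64-fold after TGF-β1, and TCF12 and TCF3 rose by smaller amounts. ID1, the main ID transcript counted, and ID2, which was scarce, did not pass the test. ID4 had no read, and reads for ID3 were found only on an alternate contig of the genome. Among the 5 members with enough reads to be tested, 3 were called at an adjusted p under 0.05 in edgeR's quasi-likelihood test, all of them E protein genes and all higher, against 44.3% of the 14860 tested entries called in either direction, 22.2% called higher and 22.1% called lower. The same 3 were the members whose control and TGF-β1 libraries did not overlap, as was the case for 55.6% of all tested entries, so a call or a lack of overlap was common in these libraries. When only library totals were used for scaling, the median of all entries shifted by -0.108 on the log2 scale and the split of all calls moved from 3294 higher and 3288 lower to 2134 higher and 4590 lower, while the 3 E protein genes were still called higher.

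Library totals lay between 21.9 and 26.9 M counts. Log2 expression correlated at 0.991 to 0.992 among control libraries, at 0.989 to 0.991 among the treated ones, and at 0.961 to 0.966 across the groups (Pearson). Proximal tubule markers were in part absent: LRP2, the megalin receptor, had no read, HNF4A had 1 read in all and ANPEP had 6 reads over both groups (3 in each), whereas PAX8, a renal transcription factor, and GGT1 were well counted. PAX8 (206 and 114 TPM in control and after TGF-β1, where TPM is transcript abundance scaled to gene length and library depth) and GGT1 (85.9 and 52.8 TPM) were called lower, while AQP1 (28 and 123 reads) and CUBN (34 and 61 reads) were called higher. The call for CUBN held in only 6 of 13 other settings. The sum of 5 epithelial markers was 1495 to 1561 TPM and 1703 to 1867 TPM, and the list was split, with the keratin genes KRT8 and KRT18 called higher at 0.65 and 0.58 on the log2 scale, KRT19 and EPCAM called lower at -1.34 and -1.25, and the E-cadherin gene CDH1 at 6 and 3 reads. Marker sums of other cell types were 1.19 to 1.91 TPM in control and 0.809 to 0.908 TPM after TGF-β1 for endothelium, with KDR at 0 and 1 read, CDH5 at 62 and 0 reads and ERG at 100 and 150 reads, and 4.34 to 6.97 TPM and 1.18 to 1.84 TPM for leukocytes, most of it CD14 (179 and 55 reads), with CD3E at 0. The fibroblast sum was 71.6 to 86.3 TPM and 58.8 to 62.8 TPM, nearly all of it LUM (77.0 and 58.5 TPM), with PDGFRA at 2 and 4 reads, DCN at 9 and 12 reads and PDGFRB at 39 and 413 reads. The part of these shifts in the results below was not tested, and in bulk RNA fewer cells of a type and less RNA per cell cannot be told apart.

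The stretches just upstream of the annotated starts are shown for ID1, the most abundant ID transcript counted, and for the 3 E protein genes. They were chosen because these are the members the results turn on. Each is the 250 bases before the start that matches the gene model in the files, from RefSeq on GRCh38.p14, read 5′ to 3′ on the strand of the gene. They lie at chr20:31605039-31605288 on the plus strand for ID1, chr18:55635958-55636207 on the minus strand for TCF4, chr15:56917840-56918089 on the plus strand for TCF12 and chr19:1652616-1652865 on the minus strand for TCF3. Capitals mark matches on either strand to the E-box CANNTG, the short SMAD motif CAGAC and the BMP-type SMAD site GGCGCC.
ID1: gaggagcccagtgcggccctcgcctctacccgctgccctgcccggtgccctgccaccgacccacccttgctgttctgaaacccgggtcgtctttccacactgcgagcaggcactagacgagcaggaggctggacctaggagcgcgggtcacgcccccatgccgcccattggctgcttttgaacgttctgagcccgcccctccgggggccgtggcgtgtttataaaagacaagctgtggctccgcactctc
TCF4: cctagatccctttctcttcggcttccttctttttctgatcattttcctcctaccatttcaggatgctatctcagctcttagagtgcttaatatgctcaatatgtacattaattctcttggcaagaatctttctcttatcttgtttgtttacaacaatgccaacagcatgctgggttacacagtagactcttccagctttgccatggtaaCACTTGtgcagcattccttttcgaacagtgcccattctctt
TCF12: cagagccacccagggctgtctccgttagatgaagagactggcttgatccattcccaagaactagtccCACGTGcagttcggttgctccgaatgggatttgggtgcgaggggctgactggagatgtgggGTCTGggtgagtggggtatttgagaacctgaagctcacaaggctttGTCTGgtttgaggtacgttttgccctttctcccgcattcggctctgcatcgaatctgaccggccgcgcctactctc
TCF3: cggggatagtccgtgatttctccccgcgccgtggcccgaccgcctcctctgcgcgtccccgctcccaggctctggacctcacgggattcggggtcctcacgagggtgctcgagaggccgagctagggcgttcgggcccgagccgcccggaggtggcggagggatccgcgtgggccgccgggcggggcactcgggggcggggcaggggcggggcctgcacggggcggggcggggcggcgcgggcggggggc

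The TCF4 stretch held 1 E-box and the TCF12 stretch 1 E-box and 2 CAGAC motifs. The ID1 and TCF3 stretches held none of the 3 motifs. Bases beyond these 250 were not searched, so sites farther upstream are not covered. Over 34788 distinct RefSeq promoter stretches of this length, 61.8% held an E-box, 38.0% a CAGAC motif and 16.4% the GGCGCC site. The cyclic AMP response element TGACGTCA, present in 1.64% of them, was in none of the 7 members' stretches. RefSeq listed 10 starts for TCF4 and 5 for TCF12, of which the one at the outer end of the gene model is shown, and the files do not say which start was used. The bases just after the start were found in a GENCODE transcript of the same gene for ID1 and TCF4 but not for TCF12 and TCF3. A match is a description of these letters only. GC content was 40.8% in the TCF4 stretch, 56% in TCF12, 66% in ID1 and 79.6% in TCF3.

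TCF4, the E protein E2-2 and not the Wnt factor TCF7L2 that shares its alias, showed the largest change of the tested members. It spans chr18:55222185-55635957 on the minus strand. The control libraries held 393, 405 and 401 raw counts of TCF4 and the TGF-β1 libraries 979, 1211 and 992. All 3 TGF-β1 libraries lay above all 3 controls, and replicate 1 was the lowest of the treated libraries once depth was taken into account. Scaled with TMM, the level was 17.0 ± 0.433 CPM (counts scaled to library depth) in control and 45.0 ± 6.57 CPM after TGF-β1 (SD, n = 3 per group). The log2 fold change was 1.40 ± 0.10 (SE; 95% confidence interval 1.18 to 1.63; edgeR adjusted p = 1.62e-06). Only 3.68% of all tested entries were called higher by at least 2-fold, and TCF4 was the single member among them, at rank 389 of all tested entries by log2 fold change. In edgeR's test against a 1.5-fold change it also passed (adjusted p = 3.56e-05). Leaving out each library in turn gave 1.31 to 1.51, with TCF4 called each time.

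TCF12, the E protein HEB, spans chr15:56918090-57292595 on the plus strand. The control libraries held 1527, 1611 and 1672 of its reads and the TGF-β1 libraries 2211, 2308 and 2031. The groups did not overlap, at 68.3 ± 2.75 CPM and 92.4 ± 6.57 CPM (SD, n = 3 per group). The log2 fold change was 0.44 ± 0.065 (SE; 95% confidence interval 0.29 to 0.58; edgeR adjusted p = 0.000287). TCF3, which encodes E12 and E47 by alternative splicing, spans chr19:1609292-1652615 on the minus strand. Reads on TCF3 numbered 2605, 2879 and 2477 in the controls against 4164, 3457 and 2943 in the TGF-β1 libraries. It rose from 113 ± 6.45 CPM to 148 ± 10.6 CPM without overlap, with a log2 fold change of 0.39 ± 0.066 (SE; 95% confidence interval 0.24 to 0.54; edgeR adjusted p = 0.000745). Neither TCF12 nor TCF3 passed the test against a 1.5-fold change. Counts per gene cannot tell the E12 and E47 isoforms apart.

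ID1 spans chr20:31605289-31606510 on the plus strand. Controls held 781, 907 and 819 reads of ID1 and the TGF-β1 libraries 1012, 769 and 651. Once scaled, TGF-β1 replicate 1 was the highest of all 6 libraries and TGF-β1 replicates 2 and 3 were the lowest, so the groups overlapped. The level was 35.5 ± 1.35 CPM in control and 33.9 ± 4.30 CPM after TGF-β1 (SD, n = 3 per group). The log2 fold change was -0.065 ± 0.087 (SE; 95% confidence interval -0.26 to 0.13; edgeR adjusted p = 0.572). Without TGF-β1 replicate 1 the value was -0.19 and ID1 was called lower (edgeR adjusted p = 0.0217), while in 14 other settings, which included leaving out each other library, it was not called. No rise of more than 1.09-fold and no fall below 0.837-fold lay within the interval of the whole set.

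ID2 spans chr2:8682056-8684461 on the plus strand and was counted 46, 34 and 46 times in the controls against 55, 32 and 25 times with TGF-β1. The groups overlapped, and the spread within each was wide relative to these low counts. The level was 1.80 ± 0.354 CPM and 1.54 ± 0.497 CPM (SD, n = 3 per group). The log2 fold change was -0.21 ± 0.25 (SE; 95% confidence interval -0.77 to 0.36; edgeR adjusted p = 0.543). Falls and rises within that interval are therefore not excluded by these libraries. The log2 ratio of ID1 to ID2 was 4.41 in control and 4.59 after TGF-β1, a difference of 0.17 (two-sided exact permutation test, p = 0.6, the smallest possible being 0.1). ID4 (chr6:19837370-19842197, plus strand) had no read in any library. A count of 0 allows up to 3 reads over the group, or 0.0442 CPM in control and 0.0406 CPM after TGF-β1 without TMM, for counting error only.

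**Figure D1:**
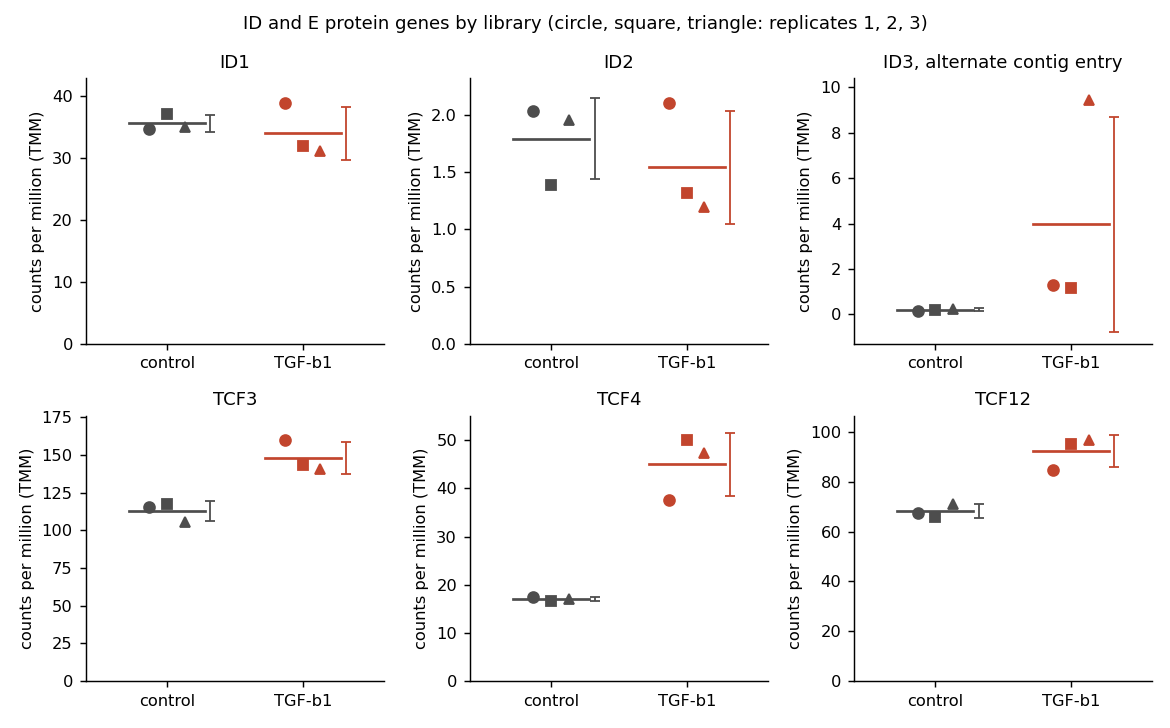
TMM-scaled CPM of each gene in the 3 control and 3 TGF-β1 libraries; horizontal lines are group means and vertical bars are the SD. TCF3, TCF4 and TCF12 were higher in all 3 TGF-β1 libraries, ID1 and ID2 overlapped, and the ID3 contig entry was carried largely by TGF-β1 replicate 3.

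**Figure D2:**
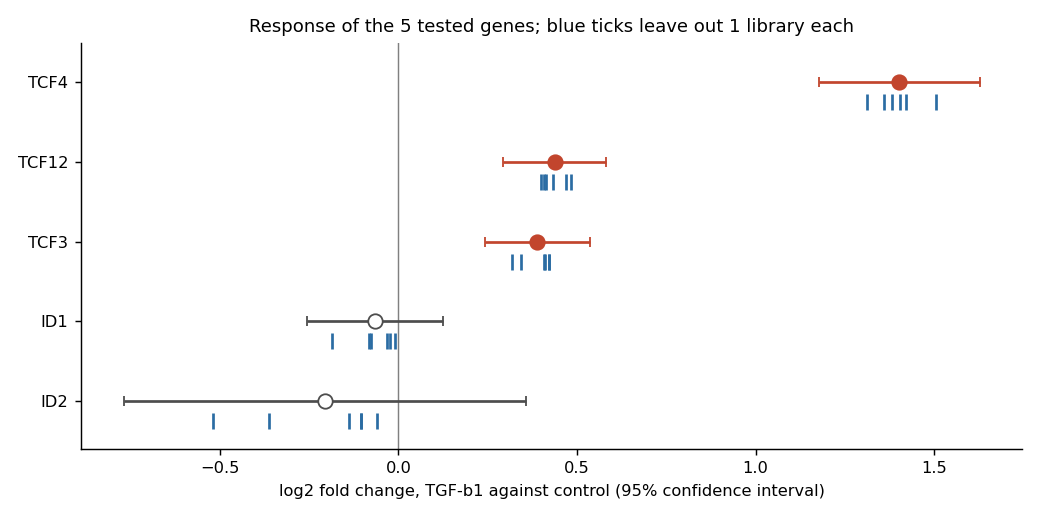
Log2 fold changes of the 5 tested members with 95% confidence intervals (filled points were called), and below each the 6 values obtained by leaving out 1 library. TCF4 stayed between 1.31 and 1.51, and the tick farthest left for ID1, at -0.19, is the value without TGF-β1 replicate 1.

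ID3 spans chr1:23557926-23559501 on the minus strand, and this entry was at 0 in all 6 libraries. A second ID3 entry of the same length, 950 bases, lay on an alternate contig, which is another version of part of the reference genome. Reads on this entry numbered 3, 5 and 6 in the controls against 34, 28 and 198 in the TGF-β1 libraries. The groups did not overlap, and replicate 3 held 76.2% of the TGF-β1 reads. The level was 0.198 ± 0.0616 CPM in control and 3.97 ± 4.75 CPM after TGF-β1 (SD, n = 3 per group). The log2 fold change was 4.27 ± 1.34 (SE; 95% confidence interval 0.66 to 7.88), which was not called (edgeR adjusted p = 0.0634), and a two-sided exact permutation test of the CPM values gave the smallest possible p = 0.1. The entry was called by DESeq2 (4.32, adjusted p = 0.000294), with the replicate number as a block (3.99, edgeR adjusted p = 0.000723) and without TGF-β1 replicate 3 (2.60, edgeR adjusted p = 0.000216).

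The contig carried 10 named genes, and the primary entries of these same names held between 0 and 11 reads each over all 6 libraries. HNRNPR, a ubiquitous RNA-binding protein gene, had 11 reads on its primary entry and 162, 1587 and 238 reads on its contig entry in the control libraries. From lowest to highest, the raw counts of the control libraries differed by 2-fold for the ID3 contig entry and by 1.67-fold to 16.6-fold for the other 7 contig genes with reads. The widest were TCEA3 at 16.6-fold, HNRNPR at 9.80-fold and ASAP3 at 6.20-fold, and ZNF436-AS1, E2F2, ZNF436 and LINC01355 lay at 3-fold or below. Whether reads matching both places were dropped or assigned to 1 of them is not given in the sources used here. Over the whole annotation, 58.8% of the 2114 primary entries whose name also lay on an alternate contig were at 0 in every library, against 32.5% of the 34864 entries with no such copy. Of the 1244 such entries at 0, only 258 had reads on a contig copy, and the reason for the gap was not tested. Because the reads of ID3 lay only on its contig entry, its level in HK-2 cells could not be read from the primary entry. No floor is given for it. The other 6 members had 1 entry each.

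**Figure D3:**
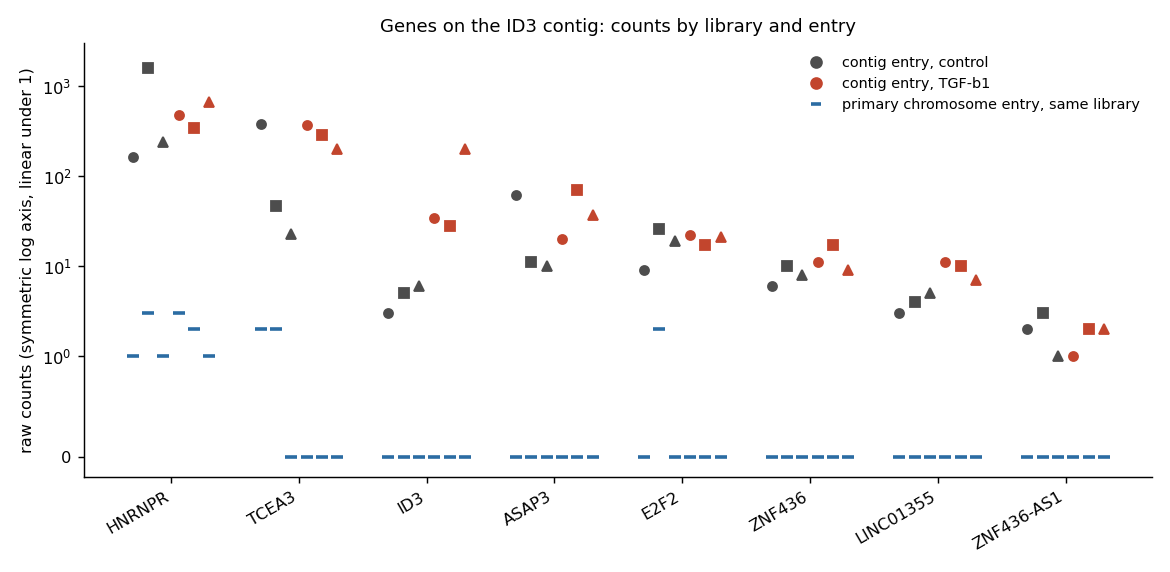
Raw counts of the 8 genes on the ID3 contig that had reads, on a symmetric log axis; points are the contig entry in each library and blue dashes the primary entry in the same library. Reads on the ID3 contig entry were higher in the TGF-β1 libraries, but replicate 3 held 76.2% of the TGF-β1 reads. The difference was not called (edgeR adjusted p = 0.0634). The control libraries differed by 6.20-fold or more for HNRNPR, TCEA3 and ASAP3 and by 3-fold or less for the other 5 genes.

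Levels were compared between genes per length, in the deposited TPM, which rests on the merged exon length of each gene. In control cells the order from high to low was ID1 at 96.8 ± 4.07 TPM, TCF3 at 55.6 ± 2.45 TPM, TCF12 at 23.3 ± 1.29 TPM, TCF4 at 4.71 ± 0.126 TPM and ID2 at 4.60 ± 0.908 TPM. The control libraries of TCF4 and ID2 overlapped, and those of the other neighbours in this order did not. After TGF-β1 the order was ID1 at 84.9 ± 8.35 TPM, TCF3 at 67.1 ± 2.996 TPM, TCF12 at 29.1 ± 2.82 TPM, TCF4 at 11.5 ± 1.98 TPM and ID2 at 3.62 ± 1.06 TPM, with no overlap between neighbours. In control, ID1 stood at percentile 86.8 of the tested entries by TPM and TCF4 at percentile 27.9. ID1 held 94.8% to 96.6% of the ID transcripts by TPM in the 6 libraries, where ID3 counted as 0.

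The summed TPM of the ID genes over that of the E protein genes was 1.17, 1.23 and 1.23 in the control libraries and 0.941, 0.769 and 0.759 in the TGF-β1 libraries. Every control library was above 1 and every TGF-β1 library below it. The position relative to 1 depends on the merged exon lengths used for TPM. These were 1222 bases for ID1 against 6748 for TCF3, 9738 for TCF12 and 12028 for TCF4. Single transcripts can be shorter, and in CPM, which is not per length, the mean ratio was 0.188 in control and 0.124 after TGF-β1. The means were 1.21 ± 0.034 and 0.823 ± 0.102 (SD, n = 3 per group), given with no test because the members were chosen. The E protein sum went from 83.7 ± 1.15 TPM to 107.7 ± 2.32 TPM, and the ID sum from 101.4 ± 3.32 TPM to 88.5 ± 9.41 TPM. The ratio is taken within a library, so scaling between libraries does not enter it. Since ID3 was not counted on its primary entry, the ratio describes ID1 and ID2 only, and it is a ratio of transcripts, not of proteins. With the ID3 contig entry added, which was done after the values were seen, it was 1.18, 1.24 and 1.24 in the control libraries and 0.979, 0.804 and 1.05 in the TGF-β1 libraries. The groups still did not overlap, but TGF-β1 replicate 3 then lay above 1, the TGF-β1 mean was 0.943 ± 0.125 (SD, n = 3), and ID1 made up 70.1% of the ID transcripts in that library.

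Among the E protein transcripts, TCF4 made up 5.68%, 5.38% and 5.83% of the summed TPM in control and 8.79%, 11.8% and 11.3% after TGF-β1. TCF3 remained the largest at 66.5% and 62.3% on average, and TCF12 stood at 27.9% and 27.03%. The log2 ratio of TCF4 to TCF3 rose by 1.005 and that of TCF4 to TCF12 by 0.96, while that of TCF12 to TCF3 differed by 0.048. By two-sided exact permutation tests over the 6 libraries these gave p = 0.1, p = 0.1 and p = 0.9, with adjusted p = 0.15, 0.15 and 0.9 over the 3 pairs. With 3 libraries per group no permutation test can go below 0.1. The 3 pairs were added after the values had been seen.

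**Figure D4:**
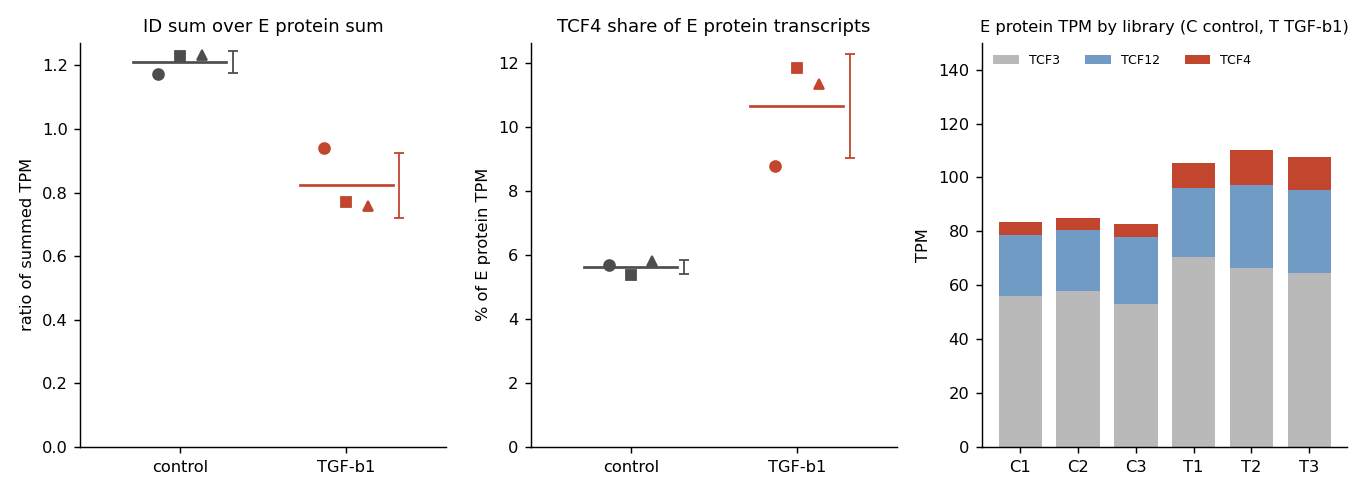
Left, summed TPM of ID genes over that of E protein genes; middle, TCF4 as a percentage of E protein TPM; lines are group means and bars the SD. Right, stacked TPM of TCF3, TCF12 and TCF4 in each library; the ratio lay between 1.17 and 1.23 in control and between 0.759 and 0.941 after TGF-β1.

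The genes most like TCF4 in pattern were RBM27 (r = 0.9997), FN1, the fibronectin gene (r = 0.9995), and ITGB1, the β1 integrin gene (r = 0.9993), by Pearson correlation over the 6 libraries among 10718 genes whose mean reached 5 CPM. These points share libraries and the group difference, and 177 genes had r above 0.99, so the ranking separates many genes by little. The log2 fold changes of the 3 were 0.94, 0.98 and 0.86. No ID gene was called, so none was named by likeness to an ID gene.

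Neighbouring genes were taken within 100 kb. Around ID1, the antisense transcript HM13-AS1 changed by -0.81 on the log2 scale (edgeR adjusted p = 0.0267) and the anti-apoptotic gene BCL2L1 by -0.88 (edgeR adjusted p = 4.1e-06), both called lower. HM13-AS1 was not called in 4 of the 13 other settings in which it was tested. The neighbours of the other members were not called: KIDINS220 beside ID2 at 0.11, UQCR11 beside TCF3 at 0.040 and LINC00926 beside TCF12 at 0.060. The antisense entries within TCF4 had no read, and LOC145783, antisense to the start of TCF12, had 106 control and 99 TGF-β1 reads. Whether counting used strand is not given in the sources used here, so reads in that overlap cannot be assigned to either gene.

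BMP-type receptors and their SMADs are the known drivers of ID transcription. Of 10 such genes, 3 rose, 1 fell and 6 were not called, with a median log2 fold change of 0.085 against 0.0063 for all tested entries. The called share of this list lay near the 44.3% of all tested entries. Of all tested entries 22.2% were called higher and 22.1% lower, which is also the background for the lists that follow. The type II receptor gene BMPR2 rose by 1.12, and the type I receptor genes BMPR1B and ACVR1 by 0.93 and 0.83, while ACVRL1, the endothelial-type receptor ALK1, fell by 1.12. SMAD1, SMAD5, SMAD9 and SMAD4 were not called, at 0.064, 0.11, 0.036 and -0.050. Among 11 other direct targets of BMP-type SMADs, 8 were tested, 5 rose and 1 fell. The largest were DLX2, a homeobox gene, at 2.56, ATOH8, a bHLH gene, at -1.74, SMAD7, an inhibitory SMAD, at 1.64, and HEY1, a repressor, at 1.20. SMAD6 and BAMBI, which also dampen these receptors, gave 0.39 and 0.64, and the call for BAMBI was lost in 5 of 13 other settings: DESeq2, and leaving out control replicate 1, control replicate 3, TGF-β1 replicate 2 or TGF-β1 replicate 3. HAMP, MSX2 and DLX5 were at 0. Several of these targets, SMAD7 and BAMBI among them, are known to respond to TGF-β too.

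All 8 listed targets of the TGF-β SMAD2/3 arm rose, with a median of 2.18. The list was chosen with earlier results of these data known, so it is not an independent yardstick. The largest were JUNB, an AP-1 gene, at 3.08, PMEPA1, a feedback inhibitor of TGF-β signalling, at 2.60, TGFBI, a matrix protein gene, at 2.33, and BHLHE40, a bHLH repressor, at 2.24. ID1 and ID2, at -0.065 and -0.21, lay below every gene of that list, the lowest of which was SKIL at 1.08. Of the 3 tested regulators known to act on ID promoters, ATF3, which is known to repress ID1 with SMAD3, fell by 0.91, MYC rose by 0.36 and EGR1 was not called at 0.48. MYCN was at 0. Of 4 genes listed for ID protein stability, 2 rose: FZR1, an activator of the anaphase-promoting complex, by 0.68 and SMURF2, a ubiquitin ligase gene, by 0.45. The deubiquitinase gene USP1 and its partner WDR48 were not called, at 0.043 and -0.092.

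**Figure D5:**
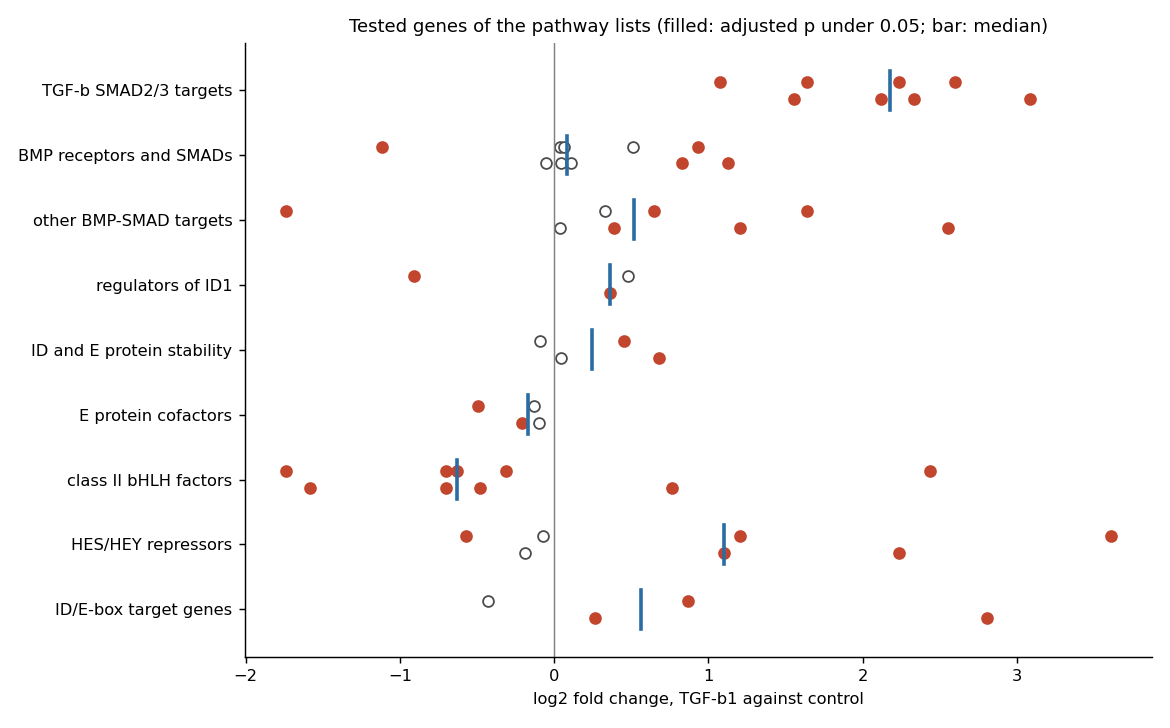
Log2 fold changes of the tested genes in 9 lists of related genes; filled points were called at an adjusted p under 0.05, open points were not, and bars are list medians. The lists were chosen with earlier results of these data known. The stability row holds genes listed for ID proteins only. All 8 TGF-β SMAD2/3 targets lay above 1, whereas the class II bHLH factors had 7 genes below and 2 above 0. Of all tested entries 44.3% were called.

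Most class II bHLH genes, whose products pair with E proteins, had too few reads to be tested. Of 33, 16 had a primary entry at 0 in all libraries, among them TWIST2, which has a second entry and so cannot be read from that 0. Of the 9 tested, 7 fell and 2 rose, with a median of -0.63. The shares over all tested entries were 22.1% called lower and 22.2% called higher. MSC, also called musculin, rose by 2.43, and SCX, the tendon factor scleraxis, by 0.76, while ATOH8 and TCF21 gave -1.74 and -1.58. TCF21 was low, at 60 control and 20 TGF-β1 reads. TAL1, at -0.70, was called in every other setting apart from the test against 1.5-fold, which is left out of these counts of settings, whereas MESP1 lost its call in 8 of 13 other settings, TWIST1 in 7 of 14, TCF15 in 4 of 13 and TCF24 in 1 of 14. The count of class II genes called lower was 4 with DESeq2, with a filter of at least 50 counts on average, without control replicate 1, without control replicate 3 or without TGF-β1 replicate 2.

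Of 6 E protein cofactor genes, 4 were tested and 2 fell. For this list and the next 2, the shares over all tested entries were again 22.1% called lower and 22.2% called higher. KAT2B, a histone acetyltransferase gene, gave -0.49 and CREBBP, another acetyltransferase gene, -0.21, while EP300 and CBFA2T2 were not called at -0.13 and -0.098. With library totals alone all 4 were called lower. Of 10 HES, HEY and BHLHE repressors, 7 were tested, 4 rose and 1 was called lower. HES1, a Notch target, went from 188 to 2330 reads (3.61), with BHLHE40 at 2.24, HEY1 at 1.20 and HES6 at 1.10, and the called-lower gene was BHLHE41 at -0.57. Of 5 genes with E-box promoters that E proteins are known to regulate, 4 were tested and 3 rose: CDKN2B, the p15 cell cycle inhibitor, by 2.81, CDKN2A by 0.87 and CDKN1A, the p21 inhibitor, by 0.26. CDKN1A lost its call in 6 of 14 other settings. CDKN2B is also a known direct target of TGF-β. CDH1 was at 6 and 3 reads. SMAD9, ATOH8, HEY1 and BHLHE40 each stand in more than 1 list.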

How the data were processed

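RNA was sequenced from 3 control and 3 TGF-β1 libraries of HK-2 cells. The authors deposited raw read counts per gene, with TPM and FPKM values computed from them and the merged exon length of each gene. The submitters' processing notes name CASAVA, featureCounts 2.0.1, DESeq2 1.16.1 and hg38. The aligner, strand and multi-mapping settings are not given in the sources used here. Each deposited table had 42095 entries and 7 records that ran over more than 1 line and were put back together. TPM was used for levels between genes and FPKM was not analysed.

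Loci without a name, 0.396% to 0.464% of counts, were left out of library sizes and tests. The 41497 named entries were filtered with filterByExpr (minimum count 10), which left 14860. They were scaled with TMM and compared by edgeR 4.0.16 with the robust quasi-likelihood F test, two-sided, with Benjamini-Hochberg adjustment over all of them and a threshold of 0.05. The SE is the size of the log2 fold change over the square root of F. Library totals were 21.9 to 26.9 M counts, of which ID2 had 25 to 55 reads per library. Alternatives were DESeq2 1.42.0, limma 3.58.1 (voom), RLE size factors, library totals alone, other filters (every entry with a read, or a mean of at least 50 counts), summed entries of a name, a replicate block, a test against 1.5-fold, and leaving out each library. Figures used matplotlib 3.10.9.

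The members and gene lists were chosen with earlier results of these data known, so counts over them carry no p-value. All 7 members were named. From each list up to 4 called genes with the largest change were to be named, or, where none was called, the tested genes with the highest mean CPM. Further list genes were named after their values were seen, as were the pairs of E protein genes. Neighbours were the nearest tested entry on each side within 100 kb, and entries overlapping a member. For TCF4 the 3 genes most alike across libraries were named. Promoter stretches came from RefSeq on GRCh38.p14, where all 7 members matched by symbol, and motifs were searched on both strands. The result of 1 tubule marker, and the summed level of that list, are not reported here.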

Additional observations from a re-analysis of the deposited data

Results flagged for a closer look

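The ID3 entry on the alternate contig lies outside the primary-chromosome entries compared here, and reads appeared on it in the TGF-β1 libraries above the level in control. Its mean after TGF-β1 was 3.97 CPM against 0.198 CPM in control, with 34, 28 and 198 counts in the treated libraries and 3, 5 and 6 in control. The difference was not called (edgeR adjusted p = 0.0634).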

How the results depend on the processing

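All 3 E protein genes were called higher in every fit other than the test against 1.5-fold, where TCF3 (0.39) and TCF12 (0.44) no longer passed and TCF4 did. ID1 stayed below 0 in every fit and was called without TGF-β1 replicate 1, so that 0 to 1 members were called lower when 1 library was left out. Leaving out 1 library gave -0.19 to -0.0098 for ID1, -0.52 to -0.060 for ID2, 0.32 to 0.42 for TCF3, 1.31 to 1.51 for TCF4 and 0.40 to 0.48 for TCF12. For the log2 ratio of TCF12 to TCF3 the difference lay between -0.023 and 0.17 with 5 libraries, below 0 when either control replicate 2 (-0.0083) or TGF-β1 replicate 3 (-0.023) was dropped. The ID to E protein ratio in CPM, which is not per length, was 0.188 in control and 0.124 after TGF-β1. With the ID3 contig entry in the sum, a setting chosen after seeing the data, the TPM ratio was 1.22 and 0.943. Entries called higher numbered 2134 with library totals alone against 3294, and entries called at least 2-fold higher and lower numbered 346 and 421 with a mean of at least 50 counts against 547 and 800. That filter removed ID2, so no value could be had there. In none of these cases was the cause of the change tested. Of 38 called genes in the pathway lists, 32 were called in the same direction in every other setting tried, the test against 1.5-fold aside.

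The replicate block gave 1.39 for TCF4, 0.39 for TCF3, 0.44 for TCF12, -0.072 for ID1 and -0.23 for ID2, and 3396 entries higher and 3394 lower. It changed no call of the 5 tested members. Same-numbered libraries correlated at 0.111, -0.012 and 0.076 in their deviations from the group means, and not every library correlated best with its own number, so the numbers were not taken as pairs.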
